A study of Mus musculus with 100 samples.

Results

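The 7 genes Synpo2, Dok7, Ncan, Efcab8, Adamtsl2, Dusp9 and Rad50 are described here in mouse fat with and without the adipocyte corepressor gene Gps2. They were selected on their RNA level in 1 of 5 expression tables, called HFD, where it was lower in knockout than in wild type, and were found by matching the transcript identifiers of all tables to gene symbols. They are 7 of the 32484 genes for which a transcript could be chosen. The HFD values therefore chose the genes and are given below as a description, without a test. The other 4 tables, called CD, Epi, Adipo and BA, played no part in that choice and carry the tests.

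Of 100 samples in the series 99 were used; in HFD, CD and BA each replicate is the mean of 4 of them, and n counts replicates. Messenger RNA had been sequenced from strand-specific libraries. The strain label, Adipoq-Cre-Gps2flox/flox, is the same for all samples, and the genotype is read from the sample titles alone (WT or KO). Adipoq-Cre is active in adipocytes, so other cells of the tissue keep Gps2, and which alleles the wild-type samples carry is not stated. The series design names normal chow, a high fat diet and beta-adrenergic stimulation. HFD samples were intra-abdominal fat at 11 weeks of age (4 wild type, 4 knockout), and the table name gives 4 weeks of diet. CD samples were intra-abdominal fat at 19 weeks (3 and 3). Both the Epi samples (intra-abdominal fat, 3 and 3) and the Adipo samples (intra-abdominal adipocytes, 3 and 2) were taken at 19 weeks, and the names of those tables give 12 weeks of HFD. BA samples were inguinal fat at 8 weeks (4 and 4), in the table that carries the abbreviation for beta-adrenergic treatment in the series. Another sample labelled Adipo knockout was not analysed here. Since the labels do not tie replicates to separate animals, p-values cover only how far these samples scatter, and that scatter may be technical.

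The genes belong to different processes. Synpo2 (myopodin) is an actin-binding scaffold of muscle and stress fibres, and Dok7 is the adaptor that activates the receptor kinase MuSK at the neuromuscular junction. Ncan encodes neurocan, a chondroitin sulfate proteoglycan best known from brain matrix, and Adamtsl2 encodes a secreted glycoprotein that binds fibrillin microfibrils and bears on TGF-beta availability. Dusp9 (MKP-4) dephosphorylates MAP kinases, Rad50 is the ATPase of the MRE11-RAD50-NBN complex that senses DNA double-strand breaks, and Efcab8 is named for its EF-hand calcium-binding domain. GPS2, the gene product removed here, works within the NCoR/SMRT corepressors, which lower transcription at the sites they occupy.

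A level below is a normalized read count, meaning reads of 1 Ensembl transcript divided by the size factor of the library. Recovered reads per replicate ranged from 41912401 to 63456837 in HFD, 47839089 to 56772573 in CD, 29444602 to 58775445 in Epi, 36792112 to 44742965 in Adipo and 42825842 to 58581144 in BA. The tables were scaled separately, so their levels are set side by side but not tested against each other. As a check of the labels, the level of a short Gps2 transcript relative to the full-length one lay at 29.7 to 35.4% in the BA libraries labelled knockout and 41.7 to 47.3% in wild type, whereas knockout-labelled samples 2 and 3 of Epi, at 50.3% and 49.9%, and 2 of Adipo, at 47.9%, lay within or above the wild-type ranges of their tables. In HFD wild type 4, at 35.5%, lay inside the knockout range of 34.6 to 36.6%. Where a library is named by genotype and number, the replicate of that name is meant. In CD the replicates labelled knockout 1 and 2 were closer to each other (chi-square per degree of freedom 6.76) than other pairs of CD replicates (161 to 1101). Libraries of 1 replicate were at 1.15 or below. Those knockout replicates 1 and 2 of CD also held epididymal markers at a summed level of 162896 and 150490. So did CD wild type 2 (43872), Epi knockout 2 (53404) and Epi knockout 3 (16351), against at most 1425 in the other CD and Epi replicates. Of 13 cell-type marker lists, 13 had overlapping wild-type and knockout sums in HFD and in BA, 11 in CD, 12 in Epi and 6 in Adipo.

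In HFD, by choice of the genes, all 7 were lower in knockout, with fitted ratios of knockout to wild type from 0.127 (Synpo2) to 0.428 (Rad50). The groups overlapped for 0 of the 7; among all 14069 genes tested in that table, 10% had every knockout sample below every wild-type sample, 63.1% had a log2 fold change below 0, and 2.45% were called lower. The pattern in the other tables differed by gene. In CD 6 of 7 had a log2 fold change below 0 (38.3% of all genes did) and 4 had no overlap (Synpo2, Dok7, Dusp9 and Rad50), against 4.57% of all genes in that direction. In Epi 6 of 7 were below 0 (53.1% of all genes) and 3 had no overlap (Synpo2, Ncan and Dusp9), against 9.14%. In Adipo 6 of 7 were below 0 (53.3% of all genes) and 5 had no overlap (Synpo2, Ncan, Efcab8, Adamtsl2 and Rad50), against 27.3%. In BA only 4 of the 7 reached the minimum mean level of 10, 3 of those 4 were below 0 (48.7% of all genes) and 0 were free of overlap, against 2.22%. Of the 7, only Synpo2 was without overlap in CD, Epi and Adipo together. The share of all genes with that joint pattern was not computed, so this is a description.

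**Figure D1:**
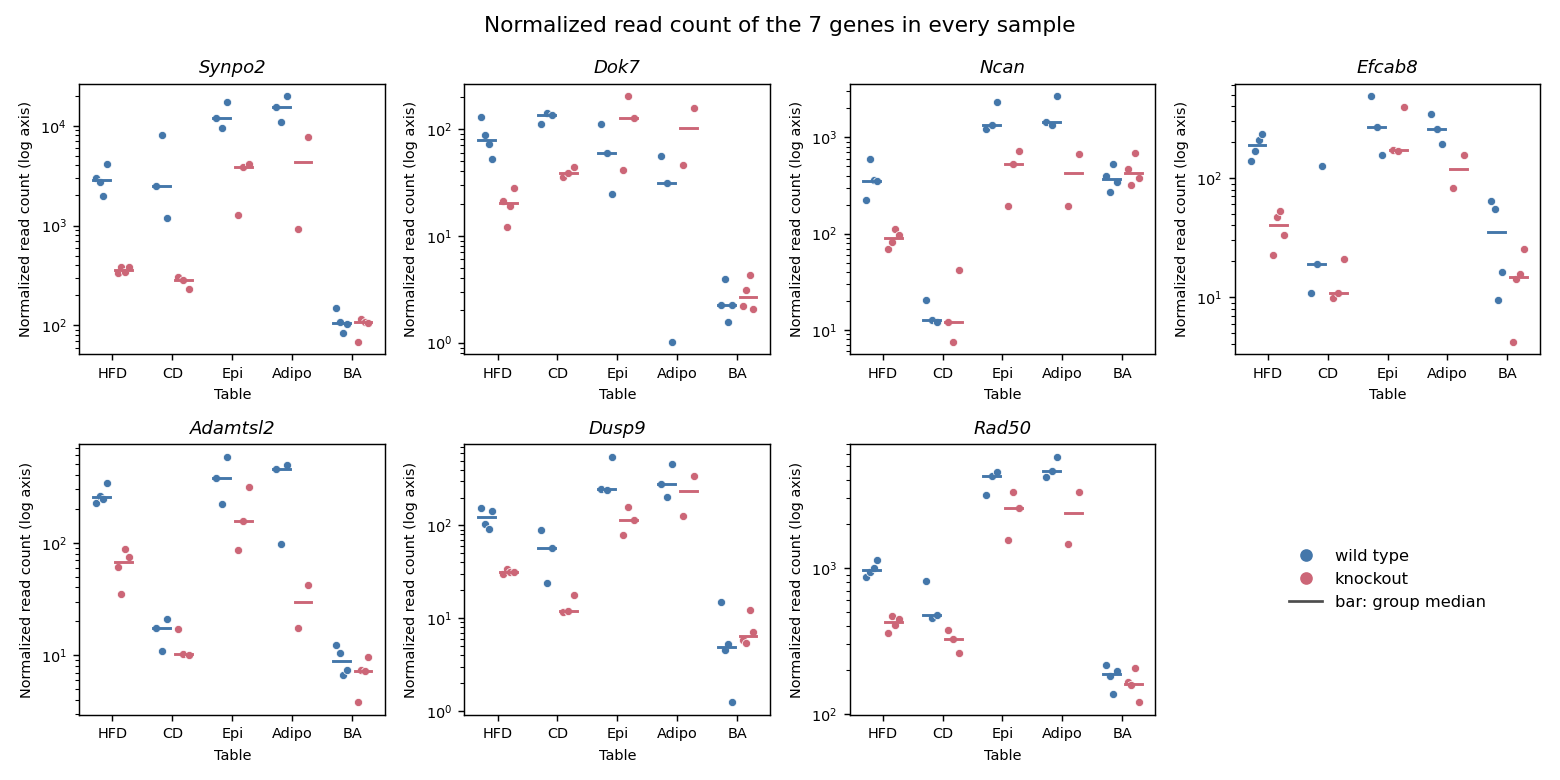
Normalized read count (log axis) of each gene in every sample of the 5 tables, with wild type in blue, knockout in red and a bar at the group median. Synpo2 knockout samples lie below all wild-type samples in HFD, CD, Epi and Adipo, and Dok7 medians in Epi and Adipo lie higher in knockout.

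The median log2 fold change of the 7 genes was -1.14 in CD, -1.17 in Epi and -1.17 in Adipo, beside 0.11, -0.03 and -0.04 for all genes tested. For the 4 tested in BA it was -0.16, beside 0.01. Rescaling by TMM moved the median of all genes in CD from 0.11 to -0.01. Limma with Benjamini-Hochberg adjustment over all genes called 0 of the 7 in CD, Epi or Adipo and 0 of the 4 tested in BA. The background of calls by the same rule was 0% of 15617 genes in CD, 0% of 17685 in Epi, 0.632% of 14248 in Adipo (0.0912% lower) and 0.0322% of 12418 in BA. An unadjusted limma p below 0.05 was reached by 4, 4 and 5 of the 7 in CD, Epi and Adipo and by 0 of the 4 in BA. Over all genes tested it was reached by 1506 in CD, 1626 in Epi, 3444 in Adipo and 1122 in BA. EdgeR on the recovered reads called 0 of the 7 in CD, Epi and Adipo and 0 of the 4 in BA. DESeq2 called 3 in CD (Synpo2, Dok7 and Dusp9), 2 in Epi (Synpo2 and Ncan), 2 in Adipo (Ncan and Adamtsl2) and 0 in BA. Its background was far larger than that of limma. Over all genes DESeq2 called 949 of 14984 in CD, 534 of 15449 in Epi, 1805 of 14247 in Adipo and 270 of 12392 in BA. Of these, 349, 321, 782 and 95 were lower.

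Synpo2 alone passed over several tables. In a fit of the mean effect over CD, Epi and BA, Synpo2 fell by 1.91 ± 0.29 on the log2 scale (SE, limma adjusted p = 0.00946), where 0.61% of 16402 genes were called in either direction and 0.262% lower. The call was lost without the CD table (log2 fold change -1.17, limma adjusted p = 0.164), without Epi (-1.77, 0.0552) and without BA (-2.80, 0.0917). Rad50 had -0.57 ± 0.16 (limma adjusted p = 0.101), Dusp9 -0.94 ± 0.33 (0.18) and Adamtsl2 -0.63 ± 0.25 (0.232). Ncan had -0.52 ± 0.29 (0.42), Efcab8 -0.83 ± 0.47 (0.421) and Dok7 -0.21 ± 0.29 (0.777). Dusp9, Adamtsl2 and Dok7 lay below the minimum mean level in BA and entered this fit on the mean over all its samples. The BA part of their mean effect thus rests on values near the floor. Without BA they had -1.66 (limma adjusted p = 0.16), -0.77 (0.394) and -0.40 (0.735). With Adipo added as a further table, Rad50 (-0.71, limma adjusted p = 0.00902), Adamtsl2 (-1.31, 0.00884) and Ncan (-0.95, 0.0417) also passed. That fit called 1137 of 16283 genes, 444 of them lower, against 100 of 16402 without Adipo. The Adipo and Epi tables share an age, a fat depot and replicate numbers, and whether they share animals is not given. Their same-numbered samples correlated at 0.095 to 0.349 in deviations from the group means, all above 0, whereas this fit takes them as independent, so the added calls rest on that assumption.

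**Figure D2:**
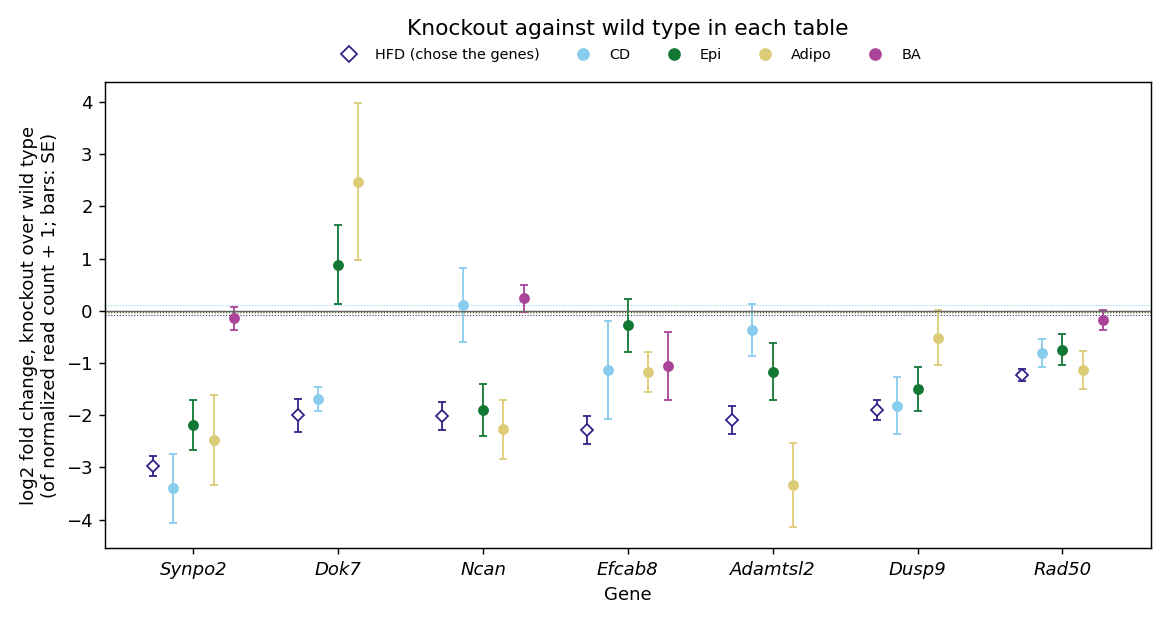
Log2 fold change of knockout over wild type for each gene and table, with bars for 1 SE and dotted lines at the median of all genes tested. Open diamonds are the HFD values that chose the genes; of the other values only those for Dok7 in Epi and Adipo and Ncan in CD and BA lie above 0.

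Synpo2 (ENSMUSG00000050315, minus strand of chromosome 3, 123076519 to 123236149, GRCm38) was the most abundant of the 7 per kilobase of transcript in HFD, CD, Epi and Adipo wild type. Its wild-type level per kilobase lay at the 77.7th percentile of tested genes in HFD, 85.6th in CD, 87.5th in Epi and 89.5th in Adipo, but at the 13.1st in BA. The chosen transcript has 4 exons and 9203 bases. In HFD its level was 2972, 2699, 1967 and 4183 in wild type and 337, 386, 343 and 382 in knockout. The knockout samples lay close together, far below the wild-type range, at a log2 fold change of -2.98 ± 0.19.

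In CD Synpo2 stood at 2502, 8049 and 1193 in wild type and 303, 286 and 232 in knockout. The groups did not overlap, and the wild-type samples spread widely; the log2 fold change was -3.40 ± 0.67 (limma adjusted p = 0.504). The library labelled CD wild type 2, with the highest Synpo2 level, held smooth muscle markers (6 of 6 listed genes tested) at a sum of 240418. The other CD libraries stood at 9732 and 11674 in wild type and 14775 to 15640 in knockout. Without wild type 2 the log2 fold change of Synpo2 was -2.66 (limma adjusted p = 0.225). Skeletal muscle markers (3 of 6 listed genes tested) stood at 544, 5566 and 290.5 in wild type and 183, 208 and 88.8 in knockout. Those sums had no overlap with or without wild type 2. Their part in the CD values of Synpo2 and Dok7 was not tested.

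In Epi Synpo2 stood at 11899, 9506 and 17342 in wild type and 1289, 3863 and 4167 in knockout, with no overlap and a log2 fold change of -2.19 ± 0.48 (limma adjusted p = 0.341). In Adipo, labelled as adipocytes, it stood at 15384, 10865 and 19884 in wild type and 922 and 7753 in knockout (-2.48 ± 0.86, limma adjusted p = 0.164). Both knockout samples were below wild type, and the library labelled knockout 1 was by far the lower. Without knockout 2, whose Gps2 share lay in the wild-type range, the log2 fold change was -4.02 and the limma adjusted p 0.0454; without knockout 1 it was -0.94 and 0.461. In both fits the lone sample is assumed to vary like wild type, and the Adipo value depends on which of the 2 knockout samples is kept.

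In inguinal fat of the BA table Synpo2 stood at 150, 107, 83.5 and 103 in wild type and 68.8, 117, 108 and 106 in knockout. The groups overlapped, with knockout 1 the lowest and wild type 1 the highest of the 8 samples, at a log2 fold change of -0.14 ± 0.22 (limma adjusted p = 0.918). The difference between the BA and CD effects was 3.26 ± 0.67 and did not pass (limma adjusted p = 0.4). That test left 0 of 14600 genes called, 1440 of them at an unadjusted p below 0.05. It passed without the library labelled CD knockout 3 (3.15, limma adjusted p = 0.0259) or CD wild type 3 (3.896, 0.0353), in fits that called 889 and 16 genes. The first of these keeps only CD knockout 1 and 2, the closely alike pair, whose spread may not be that of separate samples; with those 2 averaged to 1 replicate the difference was 3.32 (limma adjusted p = 0.844). In bulk tissue, fewer cells of a type and less RNA per cell cannot be told apart.

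Transcripts of Synpo2 were compared after their values had been seen. A read can be listed under each transcript it overlaps. The transcript with the distal last exon (chromosome 3, 123076519 to 123112810) stood in HFD at 135, 101, 78.7 and 106 in wild type and 41.1, 27.0, 34.7 and 31.7 in knockout, or 3.71 ± 0.85% and 9.40 ± 2.26% of the 4-exon level (SD, n = 4 and 4). Both transcripts were thus lower in knockout there, the 4-exon one by more. In CD the distal transcript stood at 89.5, 2054 and 70.7 in wild type and 58.2, 70.4 and 60.4 in knockout, so the library labelled wild type 2 stood apart here too. In Epi it stood at 519, 482 and 680 against 191, 279 and 265, again without overlap. In BA it reached 33.8 to 46.2 in wild type and 30.3 to 39.8 in knockout, which overlapped.

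**Figure D3:**
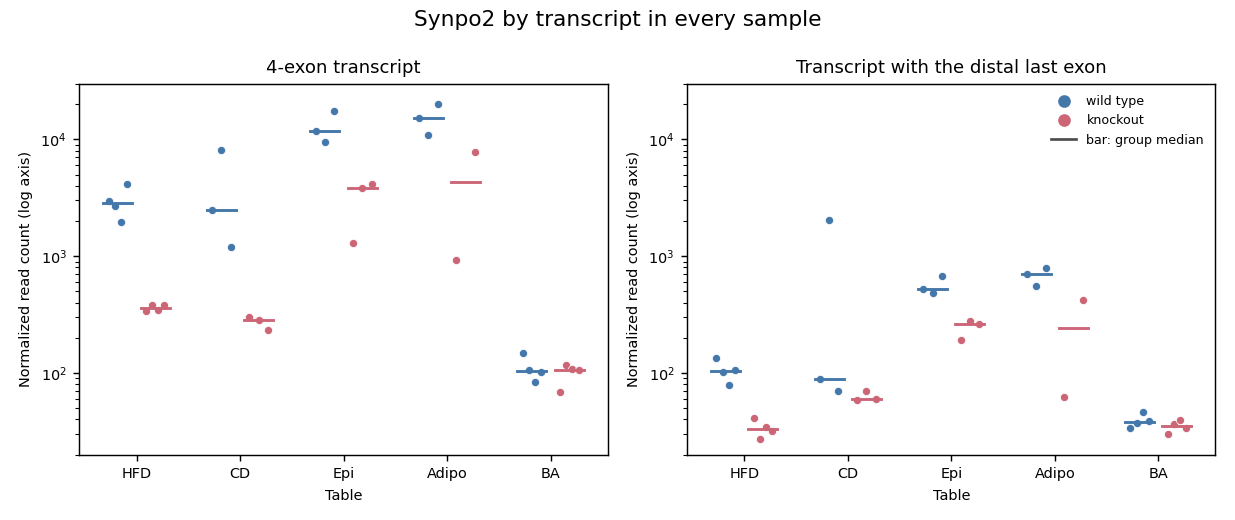
Normalized read count (log axis) of 2 Synpo2 transcripts in every sample, with bars at the group medians. The 4-exon transcript is the more abundant in every group, and CD wild type 2 stands apart at 2054 in the distal transcript.

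The 250 bases before the RefSeq start of Synpo2 and of Ncan are shown because these were the 2 genes without overlap in both Epi and Adipo for which a promoter entry was matched. Synpo2 lies at chr3:123236150-123236399 and Ncan at chr8:70120845-70121094, both on the minus strand (RefSeq, GRCm38.p6). Capitals mark matches, on either strand, to 5 motifs: the MEF2 motif by name, the GC box GGGCGG, the TATA box TATAAA, the nuclear receptor half-site AGGTCA and the E-box CACGTG.
Synpo2: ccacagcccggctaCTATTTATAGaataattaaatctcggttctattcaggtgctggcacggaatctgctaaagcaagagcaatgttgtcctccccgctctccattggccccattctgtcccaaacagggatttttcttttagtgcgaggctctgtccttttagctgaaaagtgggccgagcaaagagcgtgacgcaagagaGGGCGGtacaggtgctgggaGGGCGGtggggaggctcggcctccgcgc
Ncan: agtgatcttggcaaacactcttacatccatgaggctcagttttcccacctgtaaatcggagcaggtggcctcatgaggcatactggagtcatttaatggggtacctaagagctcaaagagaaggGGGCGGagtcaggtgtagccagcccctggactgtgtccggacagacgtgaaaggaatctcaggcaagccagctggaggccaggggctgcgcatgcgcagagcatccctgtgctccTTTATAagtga
The Synpo2 window holds a MEF2 match, bases -236 to -227 from the start, which overlaps a TATAAA match on the other strand, and 2 matches of GGGCGG. The Ncan window holds 1 GGGCGG match and a TATAAA match on the other strand at -11 to -6. Among 32851 promoters of the same length, 2.92% hold a MEF2 match, 32.7% GGGCGG, 12.4% TATAAA, 14% AGGTCA and 6.02% CACGTG. Promoter entries were matched for 5 of the 7 genes; MEF2 was matched in Synpo2 only, AGGTCA in Dok7 only and CACGTG in Efcab8 only. A match describes letters in the window and not a bound site.

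The other genes of actin scaffolds and smooth muscle contraction (20 listed) gave 1 call in HFD and 1 in Adipo. In HFD 1 of 18 fell, Des (muscle desmin), from 659 ± 69.6 to 362 ± 68.5 (SD, n = 4 and 4; log2 fold change -0.88 ± 0.14, limma adjusted p = 0.012), where 3.45% of all genes were called. In Adipo 1 of 19 rose, Zyx (the focal adhesion protein zyxin), from 1040 ± 221 to 3401 ± 244 (n = 3 and 2; 1.73 ± 0.19, limma adjusted p = 0.0303). In CD 19 of 19 had log2 fold changes below 0, with a median of -1.09 beside 0.11 for all genes and with 0 called. This list and the smooth muscle markers both hold smooth muscle genes, so the markers are not a separate check of this count. Outside CD wild type 2 (240418), the marker sums were higher in knockout (14775 to 15640) than in wild type (9732 and 11674). The part of CD wild type 2 in the count of 19 was not tested. In Epi 12 of 20 and in BA 3 of 18 were below 0, with 0 called in each.

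Dok7 (ENSMUSG00000044716, plus strand of chromosome 5, 35056766 to 35087839) had log2 fold changes of opposite sign in different tables. In HFD it stood at 129, 86.7, 71.5 and 51.7 in wild type and 21.2, 12, 19.1 and 28.1 in knockout (log2 fold change -2.004 ± 0.316). In CD it stood at 112, 140 and 133 in wild type and 35.4, 38.4 and 43.5 in knockout. Neither table had overlap, and the CD groups were tight, at -1.69 ± 0.22 (limma adjusted p = 0.496, unadjusted p = 0.000251). Without the library labelled CD knockout 3 it passed (-1.77, limma adjusted p = 0.0262), in a fit that called 648 genes in place of 0. That fit keeps only knockout 1 and 2, the closely alike pair, whose spread may not be that of separate samples; with those 2 averaged to 1 replicate it was -1.65 (limma adjusted p = 0.967).

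In Epi Dok7 stood at 112, 58.8 and 24.7 in wild type and 41.1, 203 and 127 in knockout, and in Adipo at 56.2, 31.3 and 1.02 in wild type and 46.0 and 158 in knockout. Here 2 of 3 and 1 of 2 knockout samples lay above all wild-type samples. The log2 fold changes were 0.89 ± 0.76 (limma adjusted p = 0.738) and 2.48 ± 1.501 (0.351). Labelled knockout 2 and 3 in Epi and knockout 2 in Adipo, these are the libraries whose Gps2 share lay within or above the wild-type range. The same Epi libraries held epididymal markers at 53404 and 16351, against 51.7 in knockout 1, and the part of either in the Dok7 values was not tested. The Epi effect minus the CD effect was 2.58 ± 0.85 and did not pass (limma adjusted p = 0.566). In BA all 8 samples were at 4.25 or below.

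Of 18 listed genes of the agrin and MuSK route or the DOK family, 9 were tested in HFD. There 1 fell (3.45% of all genes were called), Dok1, which was listed as a DOK family member. It went from 226 ± 34.7 to 149 ± 4.19 (SD, n = 4 and 4; log2 fold change -0.58 ± 0.12, limma adjusted p = 0.0324). In CD 0 of 9, in Epi 0 of 15, in Adipo 0 of 11 and in BA 0 of 8 passed. The neighbour Lrpap1 (a chaperone of lipoprotein receptors), 3.7 kb on, was at 4774 ± 707 in wild type and 6261 ± 129 in knockout in HFD, a difference that did not pass (0.40 ± 0.12, limma adjusted p = 0.104). The neighbour on the other side, Hgfac, stood at -2.33 ± 1.28 in CD and 2.13 ± 1.92 in Epi and did not pass either (limma adjusted p = 0.551 and 0.754).

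Ncan (ENSMUSG00000002341, minus strand of chromosome 8, 70093085 to 70120873; 15 exons, 1 listed transcript) was lower in knockout without overlap in HFD, Epi and Adipo. In HFD it stood at 225, 593, 356 and 354 in wild type and 69.3, 81.7, 112 and 97.0 in knockout (-2.01 ± 0.27). In Epi it stood at 1214, 1349 and 2312 in wild type and 194, 523 and 712 in knockout (-1.90 ± 0.50, limma adjusted p = 0.407). In Adipo it stood at 1430, 1338 and 2679 in wild type and 191 and 663 in knockout (-2.27 ± 0.57, limma adjusted p = 0.108). None of these 3 tables had overlap, and the library labelled knockout 1 was the lowest in both Epi and Adipo.

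In CD Ncan was near the filter, at 20.3, 12.7 and 12.1 in wild type and 12.2, 7.57 and 41.6 in knockout (0.11 ± 0.70, limma adjusted p = 0.96). The sign turned without the library labelled CD knockout 3 (-0.55, limma adjusted p = 0.635). In BA it was well expressed, at 397, 272, 525 and 339 in wild type and 466, 315, 678 and 376 in knockout, with overlap throughout (0.24 ± 0.26, limma adjusted p = 0.87). The Epi effect minus the CD effect was -2.02 ± 0.87 and did not pass (limma adjusted p = 0.618), and the tables differ in more than diet.

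Of 14 other lecticans, link proteins and partners, 8 or 9 were tested per table and 0 passed in any. The smallest p in the mean over CD, Epi and BA was that of Hapln3 (a hyaluronan link protein), at -0.68 ± 0.20 (limma adjusted p = 0.117), followed by Vcan (versican, a lectican of many tissues) at -0.30 ± 0.15 (0.34). Hapln4, a link protein gene 2.2 kb from Ncan, was tested in Epi (47.9 ± 27.4 and 16.2 ± 3.28, SD, n = 3 and 3; -1.38 ± 0.59, limma adjusted p = 0.545), in Adipo (-1.93 ± 0.99, 0.278) and in BA (-0.05 ± 0.52, 0.989). Its signs were those of Ncan in Epi and Adipo, and none of its differences passed.

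Adamtsl2 (ENSMUSG00000036040, plus strand of chromosome 2, 27079379 to 27108981, 19 exons) had its largest log2 fold change in Adipo. In HFD it stood at 225, 261, 247 and 339 in wild type and 61.4, 34.9, 87.9 and 74.2 in knockout (-2.09 ± 0.26). In Adipo it stood at 457, 98.1 and 494 in wild type and 17.4 and 41.7 in knockout (-3.33 ± 0.81, limma adjusted p = 0.104). In Epi it stood at 375, 220 and 584 in wild type and 86.2, 157 and 311 in knockout (-1.17 ± 0.55, limma adjusted p = 0.572). HFD and Adipo had no overlap, and in Epi knockout 3 lay above wild type 2.

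The Adipo effect of Adamtsl2 minus its Epi effect was -2.17 ± 1.04 and did not pass (limma adjusted p = 0.45), in a test that called 1.28% of 16944 genes, 0.0295% in the negative direction. In CD it was near the filter, at 17.4, 10.98 and 21.02 in wild type and 17.2, 10.3 and 9.95 in knockout, and in BA at 12.2 or below in all 8 samples. Between wild type and knockout in Adipo, marker sums of 7 of 13 cell types had no overlap: endothelial markers stood at 2068 to 3659 in wild type and 14456 to 34780 in knockout, mast cell markers at 50.1 to 76.7 and 206 to 513, and mesothelial markers at 128 to 620 and 974 to 1489. Fat progenitor markers (14407 to 22710 and 12542 to 13300), smooth muscle markers (8389 to 19309 and 5901 to 8261) and Schwann cell markers (216 to 302 and 143 to 154) were lower in knockout. Among all genes tested in Adipo, 27.3% had every knockout sample below every wild-type sample, so a split without overlap is common there. The part of these markers in the Adipo values of the 7 genes was not tested.

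Adipocyte markers in Adipo stood at 1423014 to 1692070 in wild type and 1704768 to 1815464 in knockout. Every one of the 6 endothelial and 8 adipocyte genes was above 0 in that table. The mast cell gene Ms4a2 and the epithelial gene Krt5 were at 0 in all Adipo samples.

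Of 20 genes of the ADAMTS-like family, fibrillin fibres and TGF-beta storage, 1 rose in Adipo, Ltbp4 (latent TGF-beta binding protein), from 698 ± 171 to 4010 ± 1478 (SD, n = 3 and 2; 2.50 ± 0.31, limma adjusted p = 0.0425), and 0 passed in HFD (18 tested), CD (20), Epi (20) or BA (17). The list median in Adipo was 1.18 beside -0.04 for all genes. On the chromosome, the neighbour Sardh (sarcosine dehydrogenase of mitochondrial one-carbon metabolism), 79.4 kb on, fell in HFD from 979 ± 94.3 to 563 ± 52.9 (n = 4 and 4; -0.80 ± 0.10, limma adjusted p = 0.00557). Sardh also fell in the mean over CD, Epi and BA (-0.56 ± 0.11, limma adjusted p = 0.0317). Slc2a6 on the other side did not pass in any table.

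Dusp9 (ENSMUSG00000031383, plus strand of chromosome X, 73639419 to 73643514; 4 exons) was lower in HFD, CD and Epi without overlap. In HFD it stood at 154, 104, 91.0 and 145 in wild type and 29.8, 33.8, 31.8 and 31.3 in knockout (-1.90 ± 0.19). In CD it stood at 90.2, 24.1 and 57.8 in wild type and 11.6, 11.9 and 17.9 in knockout (-1.82 ± 0.55, limma adjusted p = 0.504). In Epi it stood at 247, 243 and 552 in wild type and 79.5, 159 and 115 in knockout (-1.50 ± 0.42, limma adjusted p = 0.423). The knockout values were the tighter group in all 3 of these tables.

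In Adipo Dusp9 stood at 281, 205 and 465 in wild type and 126 and 345 in knockout (-0.52 ± 0.53, limma adjusted p = 0.573), and the library labelled knockout 2 lay inside the wild-type range. Without knockout 1 the sign turned (0.21, limma adjusted p = 0.868). In BA all 8 samples were at 14.9 or below. The BA effect minus the CD effect was 2.31 ± 0.84 (limma adjusted p = 0.443), with the BA values below the minimum mean level.

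The list of 16 beside Dusp9 held other MAP kinase phosphatases, MAP kinases and inhibitors of the ERK route. In HFD, where 3.45% of all genes were called, 1 of 15 listed genes fell, Dusp7 (an ERK phosphatase), from 233 ± 20.3 to 158 ± 14.9 (SD, n = 4 and 4; -0.56 ± 0.11, limma adjusted p = 0.0258), and 1 rose, Spry4 (an inhibitor of the ERK route), from 447 ± 81.8 to 755 ± 133 (0.76 ± 0.16, limma adjusted p = 0.037). In Adipo, where 0.632% of all genes were called, the list median was 1.05 beside -0.04 for all genes, and 2 of 16 rose: Dusp8 (a JNK and p38 phosphatase), from 253 ± 43.6 to 1271 ± 327 (n = 3 and 2; 2.31 ± 0.24, limma adjusted p = 0.0232), and Dusp1 (an early stress-induced phosphatase), from 3493 ± 533 to 8584 ± 1080 (1.30 ± 0.18, limma adjusted p = 0.0498). In CD, Epi and BA 0 of 16 passed. The neighbours Pnck and Atp2b3 did not pass; Atp2b3 stood at 16.1 ± 26.4 in wild type and 1668 ± 1444 in knockout in CD (n = 3 and 3; 5.28 ± 3.15, limma adjusted p = 0.578), in the table where the libraries labelled knockout 1 and 2 held epididymal markers.

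Rad50 (ENSMUSG00000020380, minus strand of chromosome 11, 53649519 to 53707319; 25 exons, 5153 bases) lies 16.2 Mb from Gps2 on the same chromosome. In HFD it stood at 865, 932, 1003 and 1133 in wild type and 360, 469, 407 and 446 in knockout (-1.22 ± 0.12). In CD it stood at 811, 452 and 476 in wild type and 373, 327 and 263 in knockout (-0.81 ± 0.27, limma adjusted p = 0.504). Neither table had overlap.

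In Epi Rad50 stood at 3162, 4288 and 4503 in wild type and 1547, 3306 and 2558 in knockout, where knockout 2 lay above wild type 1 (-0.74 ± 0.29, limma adjusted p = 0.524). In Adipo it stood at 4219, 4614 and 5770 in wild type and 1462 and 3316 in knockout, without overlap (-1.13 ± 0.36, limma adjusted p = 0.145). In BA it stood at 215, 182, 136 and 196 in wild type and 165, 158, 207 and 120 in knockout, with overlap (-0.17 ± 0.19, limma adjusted p = 0.881).

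Rad50 reads were not spread evenly along the gene. A shorter listed transcript covers 12 exons, namely exons 1 to 13 without exon 10, and ends inside exon 13, and its reads can be set against the remaining reads of the full transcript. This split was chosen after the values had been seen. In HFD the 5′ part stood at 67.7, 66.0, 45.7 and 38.1 in wild type and 69.8, 63.1, 56.4 and 64.8 in knockout. The rest of the transcript stood at 798, 866, 958 and 1095 in wild type and 290.5, 406, 351 and 381 in knockout. The lower Rad50 values in HFD thus came from reads outside the 5′ part, whose own values overlapped.

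Per kilobase, the rest of the transcript in HFD was at 316 ± 43.7 in wild type against 24.6 ± 6.67 for the 5′ part (SD, n = 4), a ratio of 8.86 to 21.6 over the samples. In knockout the ratio was 3.13 to 4.84. The BA samples, with a ratio of 3.43 to 5.87 in wild type and 2.98 to 6.95 in knockout, had no such gap. In Epi it was 6.95 to 8.14 in wild type and 3.33 to 5.94 in knockout, and in Adipo 7.60 to 10.3 and 2.75 to 7.42. In CD the ratios overlapped, at 3.85 to 12.8 in wild type and 4.47 to 10.3 in knockout.

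The boundary between the parts lies near the junction of exons 13 and 14, which is shown because the reads step up across it. The end of exon 13 (chr11:53683202-53683261) is in lower case and exon 14 (chr11:53680033-53680222) in capitals, read on the minus strand from GENCODE M21 (GRCm38).
Rad50: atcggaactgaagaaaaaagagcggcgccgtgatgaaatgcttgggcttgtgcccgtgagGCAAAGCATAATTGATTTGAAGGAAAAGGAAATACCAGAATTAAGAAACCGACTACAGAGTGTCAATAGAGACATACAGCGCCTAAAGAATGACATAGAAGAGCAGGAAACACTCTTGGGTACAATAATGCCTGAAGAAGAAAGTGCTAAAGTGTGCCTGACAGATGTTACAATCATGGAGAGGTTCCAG
A 2-exon transcript that overlaps exons 14 and 16 stood in HFD at 108, 108, 91.1 and 74.1 in wild type and 38.8, 50.8, 42.1 and 47.6 in knockout, without overlap. The transcript of exons 7 to 9 stood at 22.8, 17.7, 12.5 and 13.8 and at 29.5, 19.8, 17.4 and 22.4, with overlap. The strand setting of the counting is not stated, so RNA from the other strand or from a start inside the gene cannot be told apart from Rad50 mRNA.

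In the tables that did not choose the genes, the 5′ percent of Rad50 reads was compared by an exact two-sided permutation test of the log2 values, among 12 tests adjusted together (3 measures in 4 tables). In Epi it was 9.76, 9.18 and 8.45% in wild type and 18.4, 11.4 and 11.2% in knockout, and in Adipo 9.001, 7.53 and 6.79% in wild type and 21.5 and 9.20% in knockout. The 5′ level itself overlapped in Epi (309 to 393 and 285 to 376) but not in Adipo (347 to 392 and 305 to 314), so in Adipo both parts were lower. Both tables were without overlap in the percent, with an exact permutation p = 0.1 (adjusted 0.24), the smallest that these sample numbers allow. In CD the shares overlapped (5.56, 16.3 and 7.86% against 14.4, 11.1 and 6.81%; exact permutation p = 0.8), and in BA too (11.4 to 18.0% against 9.76 to 20.1%; exact permutation p = 0.771).

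**Figure D4:**
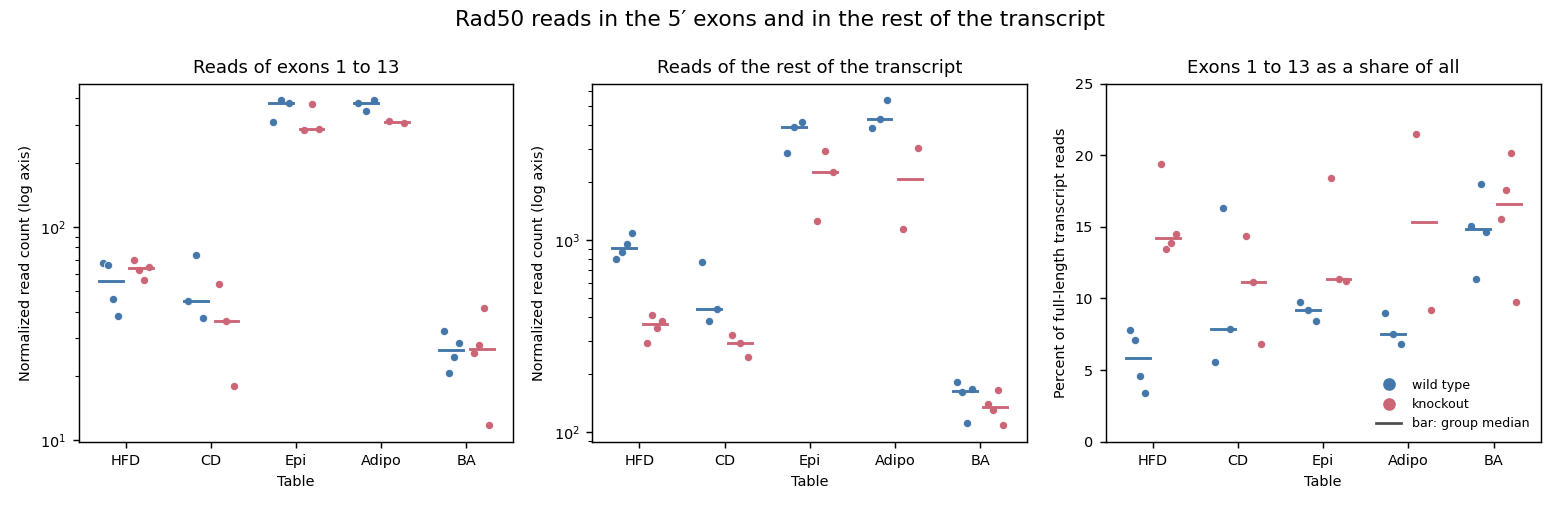
Rad50 reads of exons 1 to 13 without exon 10, reads of the rest of the transcript (both log axes), and the percent of reads in the 5′ part, for every sample with bars at group medians. In HFD the groups overlap in the 5′ part and are apart in the rest, and the 5′ percent is 3.36 to 7.82 in wild type and 13.5 to 19.4 in knockout.

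The other genes of the MRN complex and double-strand break repair showed no call. Of 17 listed, 17 were tested in each table and 0 passed in HFD, CD, Epi, Adipo or BA, with list medians of 0.09, 0.09, -0.09, -0.25 and 0.04. The smallest p in the mean over CD, Epi and BA were those of H2afx (the damage-marked histone variant, 0.46 ± 0.13, limma adjusted p = 0.107) and Brca1 (a repair factor, -0.43 ± 0.17, 0.223). The nearest measured genes flank Rad50 at 47.6 kb (Kif3a, a kinesin) and 62.7 kb (Irf1, an interferon-responsive transcription factor). Irf1 rose in Adipo from 910 ± 118 to 8152 ± 944 (SD, n = 3 and 2; 3.17 ± 0.16, limma adjusted p = 0.00688) and did not pass in the other tables, and Kif3a passed in none.

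Efcab8 (ENSMUSG00000044083, plus strand of chromosome 2, 153779931 to 153844751) was counted through a 2-exon transcript at its 3′ end (153842981 to 153844745). In HFD it stood at 138, 170, 208 and 232 in wild type and 22.8, 47.0, 52.4 and 33.4 in knockout (-2.28 ± 0.27). A transcript of the first 8 exons stood at 0.25 or below in all HFD wild-type samples and 0.77 or below in knockout, so the reads behind Efcab8 in HFD lay toward the 3′ end. The 28-exon transcript stood at 53.3, 83.4, 56.5 and 46.8 in wild type and 6.11, 18.3, 21.4 and 15.3 in knockout. In Epi the transcript of the first 8 exons stood at 53.7, 0.83 and 0 in wild type and 0, 5.76 and 1.72 in knockout. The Epi wild type 1 sample, at 53.7, was also the one with the highest Efcab8 level in Epi.

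In Adipo Efcab8 stood at 347, 257 and 192 in wild type and 82.8 and 157 in knockout, without overlap (-1.17 ± 0.38, limma adjusted p = 0.15). In Epi it stood at 490, 267 and 157 in wild type and 172, 168 and 397 in knockout, with overlap (-0.28 ± 0.51, limma adjusted p = 0.893), and the sign turned without wild type 1 (0.14). In CD it stood at 10.8, 19.1 and 126 in wild type and 9.92, 10.8 and 20.8 in knockout, so the wild-type mean rested on replicate 3 (-1.14 ± 0.94, limma adjusted p = 0.682). In BA it stood at 64.6, 54.7, 9.43 and 16.2 in wild type and 4.23, 14.1, 15.7 and 25.3 in knockout, with overlap (-1.06 ± 0.65, limma adjusted p = 0.704).

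Bpifb6, a gene of the BPI fold family and the next measured gene 55.6 kb on, was lower beside Efcab8 but did not pass: in HFD it stood at 103 ± 48.8 in wild type and 24.98 ± 7.84 in knockout (SD, n = 4 and 4; -1.85 ± 0.44, limma adjusted p = 0.0517), and in Adipo at 215 ± 120 and 28.2 ± 5.23 (n = 3 and 2; -2.74 ± 0.53, 0.0808). Mapre1 on the other side, a microtubule end-binding protein gene, had -0.27 ± 0.10 in HFD (limma adjusted p = 0.166). Genes that share only the EFCAB name (10 listed) gave 0 calls in HFD (3 tested), CD (6), Epi (9), Adipo (4) and BA (2); the smallest p in the mean over CD, Epi and BA were those of Efcab2 (0.19 ± 0.20, limma adjusted p = 0.709) and Efcab5 (0.64 ± 0.74, 0.74).

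Among themselves the genes varied together only in part. Over the 33 samples of all tables, as deviations from the group means on the log2 scale, Pearson's r was 0.53 between Synpo2 and Rad50, 0.47 between Ncan and Rad50, 0.41 between Synpo2 and Ncan, and between -0.06 and 0.01 for Efcab8 with these 3. The other 3 genes missed the level of 10 in BA and were not included. The samples of a table share their scaling, and same-numbered Epi and Adipo samples may share more, so these are descriptions. Among 11654 genes compared, those most alike to Synpo2 were Gaa (0.83), Kcnk3 (0.82) and Bcat1 (0.81), and to Ncan C1rl (0.79) and Gys2 (0.76). Rad50 was most alike to Lctl (0.81), Tm9sf4 (0.78) and Baiap2 (0.77), and Efcab8 to Vezt (0.82), Nrbp2 (0.80) and BC051226 (0.78).

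By wild-type level per kilobase, Synpo2 and Rad50 were the 2 most abundant of the 7 in HFD (321 and 191), CD (425 and 113), Epi (1403 and 773) and Adipo (1671 and 945). In BA the order was Ncan (53.3), Rad50 (35.3), Efcab8 (21.4) and Synpo2 (12.03), with Adamtsl2, Dusp9 and Dok7 at 2.53 or below. Dok7 was the lowest in HFD (30.5), Epi (23.4) and Adipo (10.6), and Ncan the lowest in CD (2.09). For each gene 3 differences between tables were tested: Epi against CD, Adipo against Epi and BA against CD. By limma 0 of 7 genes passed in any. An unadjusted limma p below 0.05 was reached by 2, 0 and 3 of the 7. Over all genes it was reached by 1346 of 17278, 2027 of 16944 and 1440 of 14600. In BA against CD, the BA values of Dok7, Adamtsl2 and Dusp9 lay below the minimum mean level. The differences between tables given above for single genes were chosen after their values had been seen.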

How the data were processed

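Bulk RNA-seq values of 5 tables were used as deposited. Per the submitters' processing notes, the tools were DESeq 1.8.3, HTSeq 0.5.3, SAMtools, STAR 2.4.0k and bcl2fastq 2.17, on GRCm38.p4; for roles and the strand setting of counting the sources used here give nothing. The deposited signal is reads per Ensembl transcript divided by a size factor per library: in 96 of 99 libraries 100% of values were whole reads within 0.01 read once rescaled, and 3 libraries could not be rescaled. One column of per-sample values matched no sample and was not used (1 column).

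Here 1 transcript per gene was matched to GENCODE M21, libraries of a replicate were averaged, and log2(value + 1) was tested with limma 3.58.1 (R 4.3.3; trend and robust moderation) for genes with a mean of 10 or more, with Benjamini-Hochberg adjustment over all genes of a table. A fold change on this scale understates that of low genes. The mean effect and the differences between tables were contrasts of joint fits. There the minimum mean of 10 was taken over all samples of the fit. edgeR 4.0.16 and DESeq2 1.42.0 were run on recovered reads, and other scaling, pseudocounts, filters, single libraries and left-out replicates were tried. Code was tested on simulated data. Named beside the 7 genes were their measured neighbours, up to 3 called genes of each of 7 lists (or the 2 of smallest p in the mean), and the 3 genes of highest correlation, of which 1 is not reported here. The members and lists were chosen with earlier results of these data known. Same-numbered wild-type and knockout samples correlated from -0.525 to 0.514, so numbers were not taken as pairs.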

Additional observations from a re-analysis of the deposited data

How the results depend on the processing

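Of 454 recomputed values of the 7 genes in CD, Epi, Adipo and BA, 435 kept direction and side of the threshold, 9 gained a call and 10 changed sign; of 266 in the mean over CD, Epi and BA, 254 kept both, 3 lost a call, 3 gained one and 6 changed sign, and of 451 effects compared between tables, 412 kept both, 3 gained a call and 36 changed sign. The cause was not tested for any of these. Removing a table from the mean fit, single libraries in it, and removing Epi wild type 1 and knockout 1 together were chosen after seeing the data.

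Counts of genes called moved with the tool. DESeq2 called 949 in CD, 534 in Epi, 1805 in Adipo, 270 in BA and 1474 in HFD. In Adipo TMM scaling gave 143, no filter 391, no moderation 0 and edgeR 164, against 90. In BA TMM gave 1, no filter 2, no moderation 2, summed transcripts 7 and libraries 1 to 4 alone 1, 0, 9 and 8, against 4. No moderation gave 1 in CD. The mean fit (100) gave 54 with summed transcripts, 12 with CD knockout 1 and 2 averaged, 1137 with Adipo added, 26 without Epi, 0 without BA, 0 without CD and 43, 48, 58 and 59 with libraries 1 to 4 alone. Adipo minus Epi (217) gave 135 with no filter and 47 with no moderation, and BA minus CD (0) gave 30 with no filter. With the replicate block, counts were 1411 in Adipo, 272 in HFD, 27 in the mean and 651 in Adipo minus Epi, and Synpo2 passed in the mean (limma adjusted p = 0.0387); samples shared only a number.

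Leaving out replicates gave 0 to 648 calls in CD, 0 to 22 in Epi, 3 to 718 in Adipo, 0 to 9 in BA, 126 to 1178 in HFD, 11 to 780 in the mean, 0 to 226 in Epi minus CD, 33 to 614 in Adipo minus Epi and 0 to 889 in BA minus CD; without Epi wild type 1 and knockout 1 together the counts were 15 in Epi, 15 in Epi minus CD and 72 in Adipo minus Epi. It moved log2 fold changes across 0 for Ncan in CD (-0.55 to 0.60), Efcab8 in Epi (-0.68 to 0.34; 0.14 without wild type 1), Dusp9 in Adipo (-1.24 to 0.21), Synpo2 in BA (-0.27 to 0.0242) and Dok7 in the mean (-0.40 to 0.17; 0.0020 without Epi knockout 1). In Epi minus CD it did so for Efcab8 (-0.15 to 1.56), Dusp9 (-0.0940 to 0.84) and Rad50 (-0.19 to 0.38), in Adipo minus Epi for Synpo2 (-1.83 to 1.24), Ncan (-1.26 to 0.52) and Rad50 (-0.98 to 0.20), and in BA minus CD for Ncan (-0.36 to 0.79), Efcab8 (-0.94 to 0.78) and Adamtsl2 (-0.19 to 0.25).

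Signs also changed with single libraries for Ncan in CD (library 2, -0.25), Adamtsl2 in CD (library 3, 0.0122), Synpo2 in BA (library 3, 0.0948) and Dok7 in the mean (library 1, 0.0214). Libraries of 1 replicate differed by a chi-square per degree of freedom of at most 1.15, so these refits vary the reads and not the samples. Dok7 in the mean was 0.46 with Adipo added and 0.52 without CD, and Ncan 0.18 without Epi. In BA minus CD, averaging CD knockout 1 and 2 gave -0.2250 for Ncan and -0.0804 for Efcab8, summed transcripts -0.0070 for Efcab8 and a pseudocount of 0.5 -0.0124 for Adamtsl2. Low levels limit Ncan and Adamtsl2 in CD, and Dok7, Adamtsl2 and Dusp9 in BA.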
